A study of Mus musculus with 4 samples.

Results

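The DNA replication fork machinery is described here through 40 mouse genes, in group 2 innate lymphoid cells (ILC2s) treated with FK866. The genes were taken from a list and found by symbol among the 55487 Ensembl gene IDs of the count table. The list holds the origin recognition complex, GINS, the replicative polymerases with primase, the sliding clamp and its loaders, the single-strand binding protein RPA, enzymes that finish the lagging strand, fork protection and checkpoint genes, and chromatin assembly factor 1 (CAF-1). It leaves out the MCM helicase subunits and the licensing factors. All 40 were found, and all 40 passed the filter on low counts and were among the 19194 genes tested.

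The RNA came from ILC2s sorted from mouse colon and kept in culture with the alarmin IL-33, IL-25 and the lymphocyte growth factors IL-7 and IL-2, which keep these tissue-resident cells alive and activate them. The series compared 2 control libraries with 2 libraries of cells exposed for 16 hours to FK866, an inhibitor of NAMPT. NAMPT is the enzyme that returns nicotinamide to the NAD pool. Strain, age, sex, FK866 dose and vehicle are not given in the labels, and no label says whether the replicates were separate cultures or animals, so a p-value here speaks of library-to-library spread, which may be technical.

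The control libraries held 37841233 and 32540325 counts and the FK866 libraries 27617750 and 32241615. FK866 replicate 2 stood apart in breadth, with 22461 gene IDs at 10 or more counts, against 17152 to 18667 in the other libraries. All 14 ILC2 markers examined were detected. They summed to 5942 and 5862 CPM (counts scaled to library size) in the controls and 5563 and 4575 CPM with FK866. Of the 14, 4 were called lower (28.6%) and 1 higher, where 7.89% of all genes tested were called lower and 5.31% higher. Rora was higher with FK866 (log2 fold change 1.70). Il13 (-1.49), Arg1 (-1.33), Nmur1 (-1.18) and Id2 (-0.89) were lower. The summed markers of T, B, myeloid, mast, epithelial and natural killer cells or ILC1 ranged from 0 CPM (mast cells) to 55.1 CPM (epithelial cells) in a library. Of these, the 6 myeloid markers had 5.09 and 5.37 CPM in the controls and 14.4 and 11.6 CPM with FK866, and Cd68 was the 1 called higher. The highest of these markers was Epcam, at 41.3 and 54.1 CPM in the controls and 25.1 and 36.9 CPM with FK866. Cd79b, a B cell marker, had 31.3 and 34.2 CPM against 18.2 and 23.5 CPM. Cd3g, a T cell marker, had 14.4 and 15.4 CPM against 14.7 and 14.8 CPM. Krt8 had no count in any library, and Cd8a, Cd79a and Itgam had between 0 and 9. The part of this background in the differences given here was not tested.

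A replication fork is built in steps. The origin recognition complex marks start sites and loads the MCM helicase, which is switched on when Cdc45 and GINS join it. Polymerase alpha with primase lays down primers, polymerase epsilon extends the leading strand and polymerase delta the lagging strand, both held on DNA by the PCNA ring. Lagging-strand pieces are trimmed and sealed, a protection complex keeps the helicase and polymerases together, and CAF-1 places histones on the new strands. Many of these genes are transcribed mainly around entry into S phase, under E2F transcription factors.

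Fork genes were lower with FK866 in most of the list, and the fall was uneven. Of the 40 genes, 25 (62.5%) were called lower by edgeR's quasi-likelihood test at an adjusted p under 0.05, where 7.89% of all 19194 genes tested were called lower. None was called higher, where 5.31% of all genes were called higher and 13.2% were called in either direction. None rose at an unadjusted p under 0.05 either, and DESeq2 also called 0 higher. The 40 genes together held 2725 and 2702 CPM in the controls and 1753 and 1696 CPM with FK866, or 63.5% of the control mean. Their median log2 fold change (FK866 over control) was -0.80, from -2.14 for Clspn to 0.25 for Gins3, beside a median of 0.03 over all genes tested.

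In 35 of the 40 genes both FK866 libraries lay below both controls, a pattern found in 29.3% of all genes tested. The groups overlapped for Orc4, Gins3, Gins4, Pola1 and Pold1. Among the 25 genes called, 17 fell at least 2-fold, and the 25 genes together kept 50.9% of their control level. The 15 genes not called kept 80.6%, with a median log2 fold change of -0.36. In bulk RNA, fewer cells in S phase and less RNA of these genes per cell cannot be told apart.

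**Figure D1:**
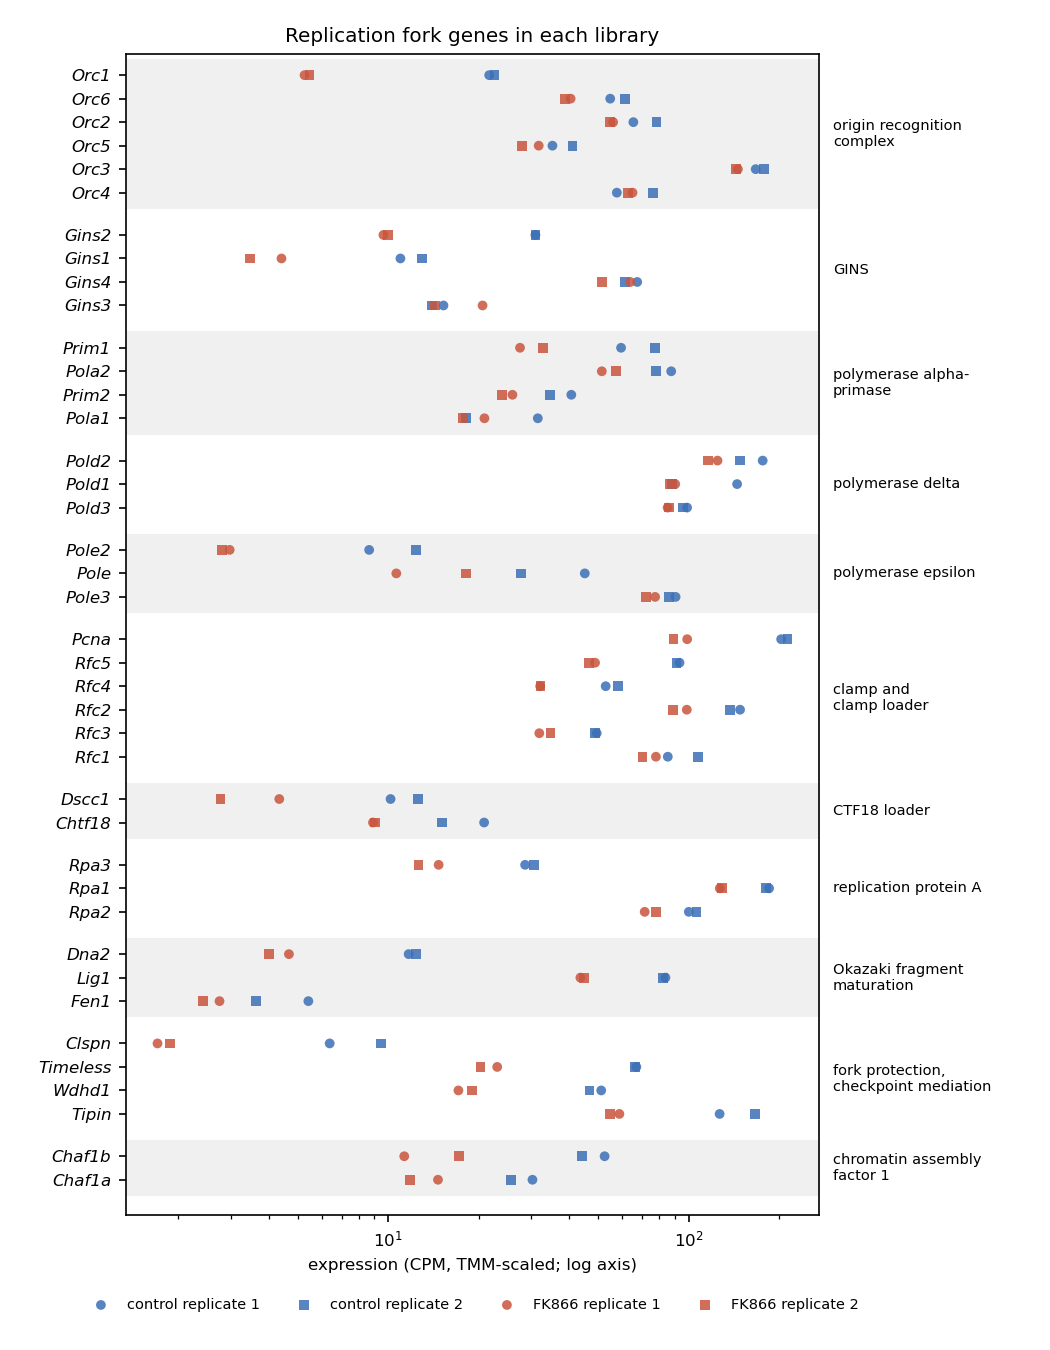
Level of each of the 40 fork genes in each library, in CPM on a log axis, ordered by role; blue marks are controls and red marks FK866, with circles for replicate 1 and squares for replicate 2. The FK866 marks of Orc1 and Clspn lie far below their controls, while the groups of Orc4, Gins3, Gins4, Pola1 and Pold1 overlap.

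**Figure D2:**
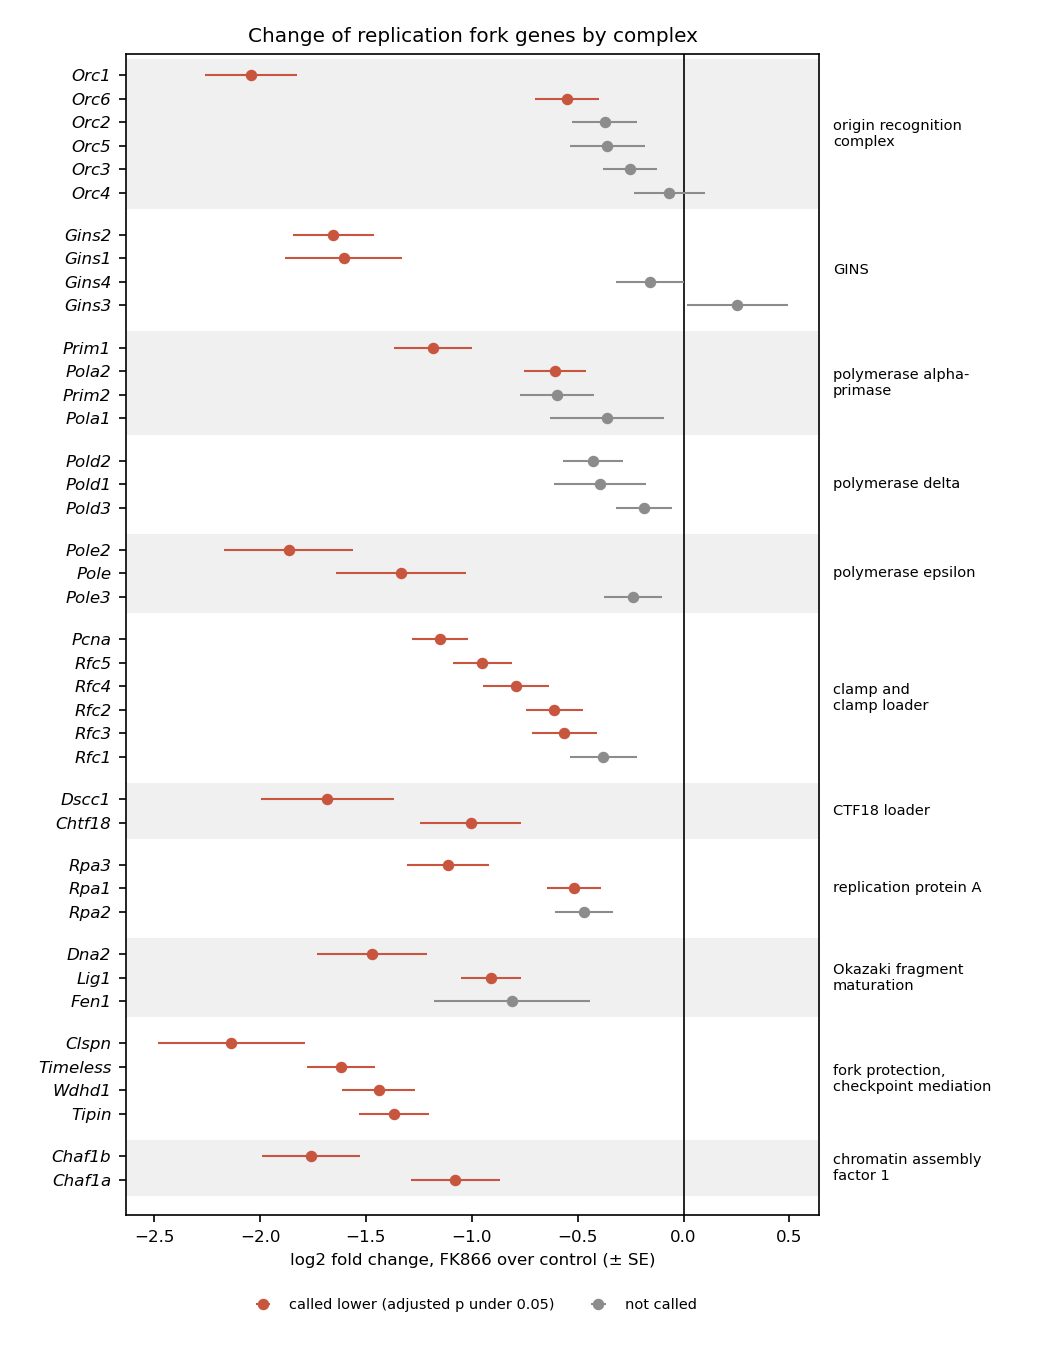
Log2 fold change (FK866 over control) of each fork gene with its standard error, grouped by role; red points were called lower by edgeR at an adjusted p under 0.05 and grey points were not called. The 4 fork protection genes lie between -2.14 and -1.37, while the 3 polymerase delta genes lie between -0.43 and -0.19.

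Both plots, of levels by library and of fold changes by role, show the same split. Of the 11 role groups, 3 were called lower in every gene: fork protection, CAF-1 and the CTF18 clamp loader. Polymerase delta had no call, and the other 7 groups were mixed. The calls of 17 genes held whichever single library was left out. The other 8 were lost without FK866 replicate 2 (Orc6, Pola2, Rfc2, Rfc3, Rfc4, Chtf18, Rpa1 and Chaf1a). Of these 8, Orc6, Pola2, Rfc3 and Rpa1 were also lost without FK866 replicate 1, and Orc6 without control replicate 2. In 37 of the 40 genes the fold change stayed negative in each of these fits, Orc4, Gins3 and Gins4 being the exceptions.

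Because strand was not marked in the libraries, reads from overlapping genes cannot be separated. More than 50% of the exon length of Gins2, Chaf1a and Fen1 overlapped exons of other genes. Without these 3 genes, 23 of 37 were called lower. Of the 21 genes with no exon overlap at all, 10 were called lower, a smaller share than the 25 of all 40 fork genes. Over all genes tested, 7.89% were called lower.

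The promoters are shown because E2F-type words were more frequent near the starts of fork genes than over all genes tested. The words occurred both in genes that fell and in genes that were not called. RefSeq promoter windows (GRCm38.p6, from 250 bases before to 50 after a transcription start) were matched for 32 of the 40 genes. The E2F-type words searched on both strands were TTTCCCGC, TTTGGCGC, TTTCGCGC and TTTGCCGC. At least 1 of them was present for 10 of the 32 fork genes (31.2%) and for 508 of 12151 tested genes with a window (4.18%). By call, 5 of 19 genes called lower and 5 of 13 not called held a match. Over all genes tested, 8.33% of those called lower and 4.49% of those called higher held one. The words were not particular to the fork list. Of the further lists described below, the MCM helicase, licensing and firing list had a match for 7 of 14 genes with a window. Other fork and nascent chromatin genes had 4 of 15. Polymerases and ligases outside the fork had 0 of 12, ATR checkpoint signalling 1 of 8, and G2 and mitosis 1 of 16. These are matches of letters, counted without a test, and no binding was measured.

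The matched stretches of the 10 genes are printed 5′ to 3′ on the strand of the gene, with the matched word, or its reverse complement, in capitals. Genes called lower come first:
Orc1 (chr4:108579416-108579445, plus strand): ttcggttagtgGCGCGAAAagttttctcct
Pole2 (chr12:69228162-69228191, minus strand): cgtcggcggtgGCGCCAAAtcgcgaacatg
Rfc3 (chr5:151651195-151651224, minus strand): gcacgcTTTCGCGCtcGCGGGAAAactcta
Lig1 (chr7:13278841-13278870, plus strand): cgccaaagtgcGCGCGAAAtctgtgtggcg
Clspn (chr4:126556990-126557019, plus strand): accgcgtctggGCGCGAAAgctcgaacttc
The stretches of genes that were not called follow:
Orc3 (chr4:34614965-34614994, minus strand): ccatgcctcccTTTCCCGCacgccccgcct
Gins3 (chr8:95633507-95633536, plus strand): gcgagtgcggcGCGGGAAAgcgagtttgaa
Pola1 (chrX:93632275-93632304, minus strand): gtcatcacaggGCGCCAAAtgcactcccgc
Pold1 (chr7:44548766-44548787, minus strand): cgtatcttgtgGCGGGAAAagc
Pold3 (chr7:100121467-100121496, minus strand): gagcgaagctgTTTCCCGCcggcgggagct
Counting a word and its reverse complement as the same, words occur in both sets. Orc1, Lig1, Clspn and Rfc3, which were called lower, carry TTTCGCGC or its reverse complement GCGCGAAA. Orc3, Gins3, Pold1 and Pold3, which were not called, carry TTTCCCGC or its reverse complement GCGGGAAA. The latter is also the second word of Rfc3, a gene that fell. Pole2, which was called lower, and Pola1, which was not called, both carry GCGCCAAA. Rfc3 is the only one of the 10 with a pair of matches in the stretch shown.

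**Figure D3:**
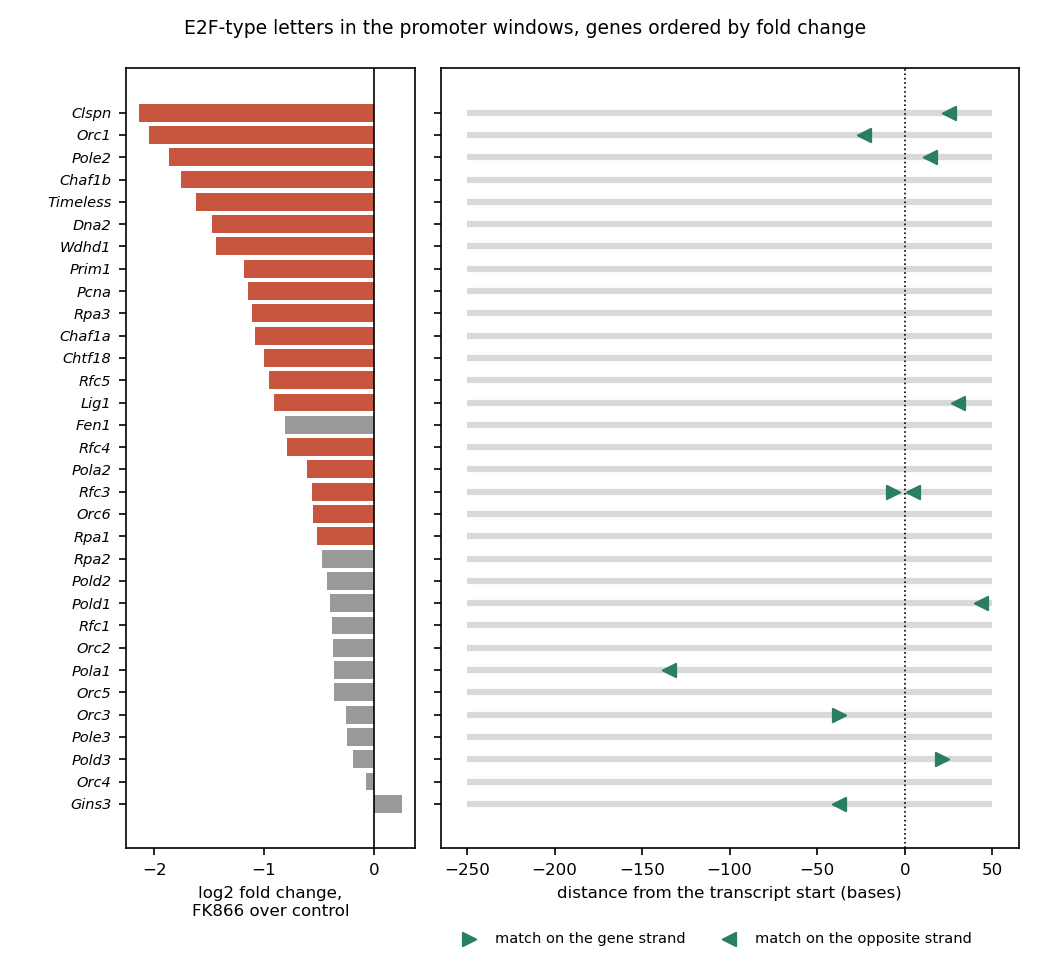
Left, log2 fold change (FK866 over control) of the 32 fork genes with a promoter window, red where called lower and grey where not. Right, position of each E2F-type match in bases from the RefSeq transcription start, with the triangle pointing by strand. Matches lie between 138 bases before the start (Pola1) and 47 bases after it (Pold1), and both call classes hold matches on either side of the start.

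The shares of the other words searched lay closer to those of all tested genes. CCAAT was present for 17 of the 32 genes (53.1%) and 42.6% of tested genes, and GGGCGG for 22 of the 32 (68.8%) and 7533 of the 12151 tested. TTTGAA, a core of the cell-cycle homology element of G2 genes, was present for 3 of the 32 (9.38%) and 15.5% of tested genes. All were searched on both strands.

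In the origin recognition complex 2 of 6 genes were called lower. Orc1, its ATPase subunit whose supply varies through the cell cycle (ENSMUSG00000028587, mm10 chr4:108579423-108614833, plus strand), stood at 21.7 and 22.6 CPM in the controls and at 5.27 and 5.47 CPM with FK866. The groups lay far apart, a fall of 2.04 ± 0.22 (SE) on the log2 scale or 4.12-fold (edgeR adjusted p = 0.00151). Orc6, the smallest subunit, fell 1.47-fold (edgeR adjusted p = 0.0459). The remaining subunits were not called.

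Orc3 was the most abundant subunit per exon length, with 167 and 178 CPM in the controls and 146 and 144 CPM with FK866. Orc2 had 65.5 and 78.3 CPM against 56.1 and 54.9 CPM, and 29.8% of its exon length overlaps Nif3l1. For both, every FK866 value lay below every control value, but the fold changes of -0.25 and -0.37 did not pass the test. Orc5 had 35.2 and 41.1 CPM in the controls and 31.7 and 27.8 CPM with FK866. Orc4, an ATP-binding subunit, had 57.7 and 76.2 CPM against 65.1 and 62.8 CPM, so its FK866 values lay between its controls. Scaled to exon length, Orc1 stood at 36.7% and 32.0% of the median of the other 5 subunits in the controls and at 10.4% and 11.05% with FK866.

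The GINS complex, which joins MCM and Cdc45 in the active helicase, split evenly. Gins2 stood at 30.9 and 30.9 CPM in the controls and at 9.641 and 9.998 CPM with FK866, a fall of 3.15-fold (edgeR adjusted p = 0.00211), although 67.3% of its exon length overlaps Gse1 on the other strand. Gins1 fell 3.04-fold (edgeR adjusted p = 0.00847). Gins3 and Gins4 were not called.

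Gins3 had 15.3 and 14.0 CPM in the controls and 20.6 and 14.3 CPM with FK866. It was the only fork gene with a positive fold change (0.25 ± 0.24), and that value rests on FK866 replicate 1, without which it was -0.13. Gins4 had 67.5 and 61.5 CPM against 64.0 and 51.6 CPM, with overlapping groups. The 4 GINS proteins form a complex with 1 copy of each, whereas the fold changes of their transcripts ran from -1.65 to 0.25. Differences between the 4 genes were not tested. Scaled to exon length, Gins4 stood at 690% and 604% of the median of the other 3 in the controls and at 1630% and 1567% with FK866. The other 3 include Gins1 and Gins2, which were called lower, and exon length merges all annotated transcripts, so these levels are approximate.

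Polymerase alpha and primase start every new strand. The primase subunits are Prim1, the catalytic one, and Prim2. Prim1 stood at 59.6 and 77.5 CPM in the controls and at 27.5 and 32.8 CPM with FK866, with no overlap, and fell 2.27-fold (edgeR adjusted p = 0.00623). Prim2 had 40.7 and 34.7 CPM against 25.9 and 23.9 CPM, also apart, and narrowly missed the test (log2 fold change -0.60 ± 0.18, edgeR adjusted p = 0.0573).

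Pola2, the accessory subunit of polymerase alpha, fell 1.52-fold (edgeR adjusted p = 0.0299). Pola1, the catalytic subunit, had 31.5 and 18.1 CPM in the controls and 20.9 and 17.7 CPM with FK866. Its controls differed more from each other than the group means did, and it was not called (log2 fold change -0.36 ± 0.27). Its value rests on which control is kept. It was -0.71 and called lower without control replicate 2, and -0.01 and not called without control replicate 1.

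The polymerase delta genes showed no call. Pold1, the catalytic subunit, had 145 and 87.9 CPM in the controls and 90.3 and 86.9 CPM with FK866, so 1 of its FK866 values lay above a control. Its log2 fold change was -0.40, but it was -0.71 and called lower without control replicate 2, and -0.09 and not called without control replicate 1. Pold2, which links the subunits, had 177 and 148 CPM against 125 and 116 CPM, and the groups lay apart (log2 fold change -0.43 ± 0.14, edgeR adjusted p = 0.0830). It was called lower without control replicate 2, at -0.55. Pold3, which carries a PCNA-binding site, had 98.9 and 95.9 CPM against 85.2 and 86.0 CPM. Its fold change of -0.19 was the nearest to 0 in the complex.

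Polymerase epsilon differed between its subunits. Pole2, which ties the polymerase to GINS, stood at 8.64 and 12.4 CPM in the controls and at 2.97 and 2.79 CPM with FK866, a fall of 3.64-fold (edgeR adjusted p = 0.00727). Pole, the catalytic subunit, fell 2.52-fold (edgeR adjusted p = 0.0245). Pole3, a histone-fold subunit that is also part of a chromatin remodelling complex, had 90.6 and 85.9 CPM against 77.4 and 72.1 CPM and was not called. Scaled to exon length, Pole3 stood at 1260% and 1243% of the mean of Pole and Pole2 in the controls and at 3826% and 2723% with FK866. Pole4, the remaining subunit, is not among the 40 genes and does not enter this comparison.

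In the clamp and its loader 5 of 6 genes were called lower, and in all 6 the FK866 libraries lay below the controls. Pcna, the ring that holds polymerases on DNA (ENSMUSG00000027342, mm10 chr2:132249162-132253314, minus strand), was the most abundant fork gene in CPM. It stood at 203 and 214 CPM in the controls and at 99.0 and 89.0 CPM with FK866. These values lay far apart, a fall of 2.22-fold (log2 fold change -1.15 ± 0.13, edgeR adjusted p = 0.00211). Pcna-ps1 and Pcna-ps2 are annotated pseudogenes of it, and how the counting shared reads between such copies is not given in the sources used here.

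Replication factor C opens the ring and closes it around DNA. Its small subunits Rfc2, Rfc3, Rfc4 and Rfc5 fell 1.53-, 1.48-, 1.73- and 1.93-fold, each past the edgeR threshold. Rfc1, the large subunit, had 85.3 and 107 CPM in the controls and 77.9 and 70.3 CPM with FK866. Its groups lay apart, but it was not called (log2 fold change -0.38 ± 0.16, edgeR adjusted p = 0.158).

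CTF18 is an alternative loader that replaces the Rfc1 subunit and binds polymerase epsilon. Dscc1 stood at 10.2 and 12.5 CPM in the controls and at 4.34 and 2.76 CPM with FK866, a fall of 3.21-fold (edgeR adjusted p = 0.0115). Chtf18, the large subunit, had 20.9 and 15.1 CPM against 8.90 and 9.03 CPM and fell 2.01-fold (edgeR adjusted p = 0.0277). Neither gene had overlapping groups. Whether these genes fell more than Rfc1 did was not tested.

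RPA coats the single strands that the helicase exposes. Rpa3, its smallest subunit, stood at 28.6 and 30.5 CPM in the controls and at 14.7 and 12.6 CPM with FK866, a fall of 2.16-fold (edgeR adjusted p = 0.00876). Rpa1, the main DNA-binding subunit, fell 1.43-fold (edgeR adjusted p = 0.0296). Rpa2, which is phosphorylated under replication stress, had 100.2 and 106 CPM against 71.5 and 77.8 CPM, with the groups apart, and missed the test (log2 fold change -0.47 ± 0.14, edgeR adjusted p = 0.0555).

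Of the 3 genes that finish Okazaki fragments, Lig1 and Dna2 were called lower. Lig1, the ligase that seals the fragments, stood at 83.8 and 82.3 CPM in the controls and at 43.6 and 44.8 CPM with FK866, a fall of 1.88-fold (edgeR adjusted p = 0.00592). Dna2, a nuclease and helicase that cuts long flaps, fell 2.78-fold (edgeR adjusted p = 0.00918). Fen1, the flap nuclease, had 5.42 and 3.62 CPM against 2.74 and 2.41 CPM. Its groups lay apart, but it had the lowest control level of the list, 84.2% of its exon length overlaps other genes, and it was not called (log2 fold change -0.81 ± 0.37, edgeR adjusted p = 0.191).

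Fork protection was called lower in all 4 genes. They summed to 251.5 and 288.9 CPM in the controls and to 100.7 and 95.9 CPM with FK866, or 36.4% of control. Timeless and Tipin form a pair that rides with the helicase and slows it under stress. Timeless (ENSMUSG00000039994, mm10 chr10:128232065-128252941, plus strand) stood at 67.0 and 66.2 CPM in the controls and at 23.1 and 20.3 CPM with FK866, a fall of 3.07-fold (log2 fold change -1.62 ± 0.16). Its edgeR adjusted p of 0.00121 was the smallest among the 40 genes. Tipin had 127 and 166 CPM against 58.8 and 54.8 CPM and fell 2.58-fold (edgeR adjusted p = 0.00236).

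Clspn encodes Claspin, which passes the ATR signal on to the checkpoint kinase Chek1 and paces the fork. It had the greatest fall of the 40 genes, 4.40-fold (log2 fold change -2.14 ± 0.35, edgeR adjusted p = 0.00718). Clspn (ENSMUSG00000042489, mm10 chr4:126556935-126593903, plus strand) was also scarce, at 6.39 and 9.45 CPM in the controls and 1.71 and 1.88 CPM with FK866. Wdhd1, which encodes the AND-1 protein that couples polymerase alpha to the helicase, fell 2.71-fold (edgeR adjusted p = 0.00227).

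CAF-1 was called lower in both genes, which together kept 36.0% of their control sum. Chaf1b, its WD-repeat subunit, stood at 52.5 and 44.1 CPM in the controls and at 11.3 and 17.2 CPM with FK866, a fall of 3.38-fold (edgeR adjusted p = 0.00347). Chaf1a, its large subunit, had 30.2 and 25.6 CPM against 14.6 and 11.8 CPM and fell 2.11-fold (edgeR adjusted p = 0.0132). The groups of both genes lay apart. Ubxn6 overlaps 52.5% of the exon length of Chaf1a.

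The surrounding replication genes were read from 5 further lists. Over all genes tested, 7.89% were called lower and 5.31% higher. The MCM helicase, licensing and firing list had 13 of 18 genes called lower and 0 higher, and its median log2 fold change was -1.16. Cdc6, which loads MCM with the origin recognition complex, had 39.0 and 32.6 CPM in the controls and 5.75 and 5.999 CPM with FK866 (log2 fold change -2.61, edgeR adjusted p = 0.000678). The helicase subunits Mcm7 and Mcm5 fell by 1.37 and 1.40 on the log2 scale. Cdc7, the kinase that fires origins, went the other way without passing the test, at 30.2 and 32.1 CPM against 46.9 and 43.2 CPM (log2 fold change 0.53 ± 0.16, edgeR adjusted p = 0.0617). It was singled out after its values were seen. Cdc7 passed under DESeq2 and with scaling to library totals, but not without a filter on low counts (edgeR adjusted p = 0.253). Dbf4, singled out in the same way, was not called (log2 fold change 0.25, edgeR adjusted p = 0.411).

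Other fork and nascent chromatin genes had 8 of 17 tested genes called lower and 0 higher (median -0.71). Mms22l, a fork repair factor, fell by 1.74 on the log2 scale, Asf1b, a histone chaperone that hands histones to CAF-1, by 1.13, and Pole4, the histone-fold partner of Pole3, by 0.74. Without FK866 replicate 2, Pole4 was not called. Of 16 polymerases and ligases that work outside the fork, 0 were called lower and 1 higher (median -0.08), where 5.31% of all genes were called higher. That gene was Poln, a repair polymerase, which rose from 0.936 and 0.613 CPM to 3.75 and 3.85 CPM (log2 fold change 2.28 ± 0.45, edgeR adjusted p = 0.0140). Poln rested on only 34 and 20 counts in the controls, and a stricter filter on low counts left 0 of this list called higher.

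ATR checkpoint signalling lay near the 7.89% of all genes tested, with 1 of 11 genes called lower (9.09%, median -0.29). It was Chek1, the kinase that Claspin serves, at 18.6 and 22.3 CPM in the controls and 10.9 and 10.4 CPM with FK866 (log2 fold change -0.94, edgeR adjusted p = 0.0232), a call lost without FK866 replicate 2. By calls, G2 and mitosis genes also lay near the share of all genes, with 2 of 20 called lower (10%), Cdc20 and Ccna2 (median -0.45). Of the 20 fold changes, 18 were negative, and the groups overlapped in 12 genes. Their sum was 163 and 116 CPM in the controls and 101 and 86.5 CPM with FK866, or 67.1% of control. The fork genes kept 63.5%. Several G2 genes were scarce, such as Plk1 and Ube2c at a mean of 1.93 and 1.46 CPM in the controls. Few calls therefore do not show that the list was unchanged. That count was unstable and moved with the library left out. It was 4 with DESeq2, where 9.91% of all genes tested were called lower. With a term for replicate number it was 7, where 15.9% of all genes tested were called lower. The call of Cdc20 was lost without FK866 replicate 2 and that of Ccna2 without control replicate 1. Differences between these lists and the 40 fork genes were not tested.

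**Figure D4:**
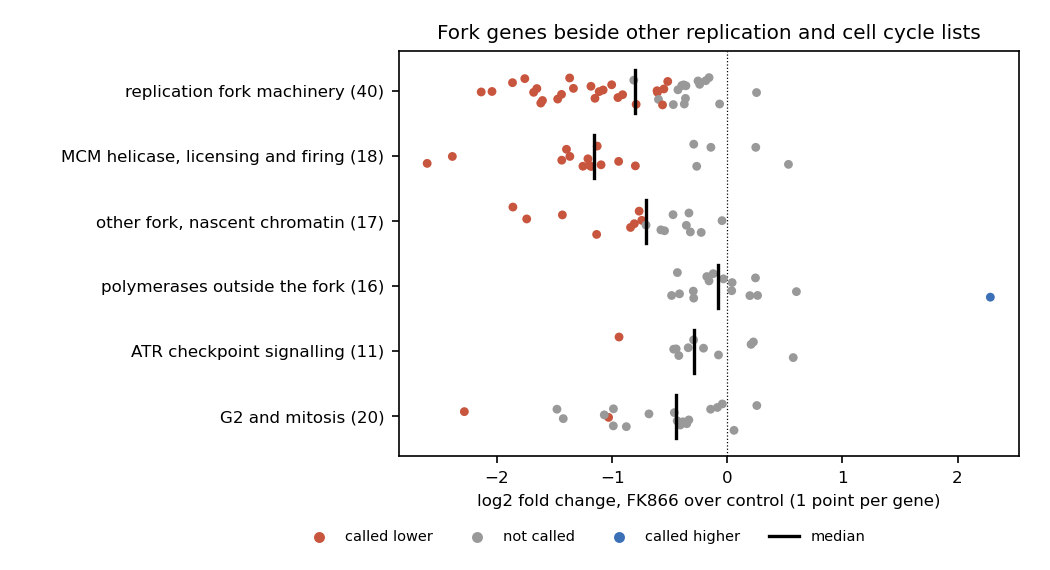
Log2 fold change (FK866 over control) of each tested gene in the fork list and in the 5 further lists, 1 point per gene, red where called lower by edgeR, blue where called higher and grey where not called, with a bar at each median. The fork genes centre at -0.80 and the MCM and licensing genes at -1.16, while the polymerases outside the fork centre at -0.08.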

How the data were processed

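RNA-seq was made from 2 control and 2 FK866 libraries of cultured colon ILC2s. Per the labels' protocols, full-length cDNA was made with SMART-Seq HT and libraries with Nextera XT, which does not mark the strand. The authors deposited raw read counts per Ensembl gene ID. Per the submitters' processing notes, cutadapt 1.9, HISAT2 2.2.1 and mm10 were used. Not given in the sources used here: the counting program, its annotation, and its strand and multi-mapping settings.

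Symbols, positions and exon lengths came from GENCODE M21 (mm10), which named 55227 of the 55487 gene IDs. Counts were tested in R 4.3.3 with edgeR 4.0.16 (TMM scaling, filterByExpr at min.count 10 and min.total.count 15, treatment as the only term, two-sided quasi-likelihood F test). P-values were Benjamini-Hochberg adjusted over all 19194 genes, and genes were called under 0.05. CPM uses TMM-scaled totals, and standard errors were derived from the log2 fold changes and their F values (ratio to the root of F). The fit was run on counts simulated gene by gene with the spread estimated from these libraries. That run checks the code and says nothing about how the replicates were made. With library totals between 27617750 and 37841233, a fork gene had 46 to 7389 counts in a library. The libraries of a group differed beyond counting noise (chi-square per degree of freedom of 35.8 for control and 19.0 for FK866), so none looked like a library deposited a second time. This check does not tell separate cultures from technical replicates.

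Alternatives were DESeq2 1.42.0, other scalings and filters, a replicate term, removal of a length and GC trend, and leaving out each library. Members, lists and role groups were chosen with earlier results of these data known. Values per library are given, in each role group, for the called gene with the smallest adjusted p and the gene with the fold change nearest to 0, for groups of 2 in full, for Pcna and Orc1 and for every gene not called. Of each further list, up to 3 called genes with the smallest adjusted p and up to 3 called in the less frequent direction are named. Per-library values of Clspn and Cdc7, and the fold change of Dbf4, were added after their values were seen. Promoter windows were matched by symbol to RefSeq. Protein sequences were not used here.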

Additional observations from a re-analysis of the deposited data

How the results depend on the processing

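No fork gene was called higher in the main analysis or in any of the 11 alternatives. The number of fork genes called lower is given next, with the share of all tested genes called lower in brackets. It was 27 with DESeq2 (9.91%), 25 with upper-quartile scaling (8.05%) and 23 with library totals (7.61%). It was 22 without a filter (3.31%) and 22 after removal of a length and GC trend (7.19%). With a stricter filter, at a mean log2 CPM of 3, it was 22 of the 34 genes left (17.9%). Leaving out single libraries gave fork medians of -0.94 to -0.74, and the calls that were lost are named above. The fork median was -0.75 with library totals, -0.85 without a filter and -0.52 with the stricter filter, which removed 6 low genes. The other 34 had a median of -0.60 in the main analysis. A term for replicate number gave 5256 genes called in all and 31 fork genes lower, where 15.9% of all tested genes were called lower. Same-numbered libraries share only a number, and their deviations correlated at 0.234 over all genes and at -0.174 over the fork genes. The further lists moved too. G2 and mitosis genes called lower numbered 4 with DESeq2, without a filter and after the length and GC trend was removed, and 7 with the replicate term. ATR checkpoint genes called lower numbered 1 with DESeq2 and 3 with the replicate term. The shares of all tested genes called lower in these fits are those given above. Both counts also moved with a library left out. Signs changed for 3 genes that were not called. Orc4 was 0.012 with the stricter filter and 0.15 without control replicate 2, Gins4 was 0.061 after the length and GC trend was removed and 0.011 without FK866 replicate 2. Over the left-out libraries Orc4 ran from -0.35 to 0.15, Gins4 from -0.42 to 0.01 and Gins3 from -0.13 to 0.52. The cause of these moves was not tested. With 2 libraries a group, the precision rests on the spread borrowed across genes, and falls near the threshold, such as those of Prim2 and Rpa2, change their call between settings.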

Other observations

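The catalytic subunits of all 3 replicative polymerases differed between the control libraries more than their partners did. Pola1, Pold1 and Pole were the only 3 of the 40 fork genes with a level in control replicate 1 over 1.5 times that in control replicate 2. Their ratios were 1.74, 1.65 and 1.63, and Fen1 lay just under the cut at 1.498. Such a gap was found in 13.6% of all genes tested, so it was not more frequent among the fork genes. The accessory subunits Pola2 and Pold2 had ratios of 1.12 and 1.19, and Pole2 one of 0.699. In Pola1 and Pold1 the lower control lay near the FK866 libraries. These genes were singled out after their values were seen, and the cause was not tested.

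Across the 40 fork genes, the genes with lower control CPM tended to have the lower fold changes. Pearson's r between the log2 fold change and the log2 mean control CPM was 0.447 and Spearman's rho 0.449, whereas over all genes tested they were -0.344 and -0.338. Genes called lower had a median control level of 49.0 CPM and genes not called one of 71.9 CPM. The correlation is across genes of the same 4 libraries, which are not independent, and the control values enter both axes, so it is a description only.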
